A study of Arabidopsis thaliana with 24 samples.

Results

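The altered auxin response of axr3-1 was measured as a difference of log2 responses, the change after indole-3-acetic acid (IAA) in axr3-1 seedlings minus the change in wild type. It uses 12 of the 24 arrays of the study, 3 in each of 4 groups: Columbia wild type (Col) and axr3-1, each as an ethanol control and after IAA. Of 14192 probe sets tested, 230 differed in response (1.62%), and these are the probe sets described here. They were separated by what happened to the response: lost, reduced, enlarged, gained, or already shifted in the axr3-1 control.

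Auxin acts by breaking down its own repressors. Aux/IAA proteins hold ARF transcription factors inactive, and auxin joins them through a short degron to the TIR1/AFB receptors, which mark them for degradation. Genes released in this way include those of Aux/IAA proteins themselves, of GH3 enzymes that join auxin to amino acids, and of LBD factors that act in lateral root formation. The allele axr3-1 is a dominant change in the degron of the Aux/IAA protein IAA17 that makes the protein long-lived, and its roots are agravitropic with few root hairs.

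The seedlings were 7 days old, grown in light (16 h light and 8 h dark) in liquid medium with 1.5% sucrose, and received 5 µM IAA or ethanol for 2 h at 24 °C. The study's other lines, iaa17-6 (another allele of IAA17, whose nature the labels do not give) and the triple mutant iaa5 iaa6 iaa19, had the same treatments and 3 arrays per group, and serve here as a comparison on separate arrays. The labels name whole seedlings and do not say whether the replicates were separate cultures, so the p-values reflect only how these arrays varied, which may be technical. In RNA from whole seedlings, fewer cells of a type and less RNA per cell cannot be told apart. No probe set is assigned to IAA17 in the annotation, so its level gave no check of the genotype labels.

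Values are log2 signals with a lowest value of 5.64, the log2 of 50, below which nothing was recorded. Between 44.43% and 45.13% of the values of each of the 12 arrays lay at this floor. The medians of the arrays ran from 5.997 to 6.064, and replicates of a group correlated at 0.963 to 0.990. Where a whole group stood at this value, its fold against another group is bounded from one side and written "at least". Differences of responses that involve such groups are taken between floored values and carry no bound. Arrays at the floor show no spread, and all groups share 1 estimate of spread. The SE and p-values of such probe sets can therefore be too small for the groups above the floor. The photosynthesis markers (3 of 27 listed were measured) and the root marker PYK10 (1 of 16) gave 0 calls in any comparison of axr3-1 with Col. The root hair markers (3 of 10) were at the floor on all 6 axr3-1 arrays, with list means per array of 6.65 to 7.36 in Col, and 0 of them were called in the difference of responses. The part of missing root hair transcripts in the results below was not tested. Of 18 vascular markers 0 were matched by name to a probe set. Within their groups, Col control replicate 3 and axr3-1 IAA replicate 3 had the lowest correlations, and without both of them 143 probe sets were called. In a fit with array weights, another array, axr3-1 control replicate 1, had the lowest weight (0.116). Leaving it out of the main fit gave 191 calls.

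In axr3-1 the response to IAA was mostly smaller. Of the 230 probe sets, 160 had a response that passed the test in Col and not in axr3-1 (lost), and 33 had one that passed in both genotypes and was smaller in axr3-1 (reduced). A response was enlarged in 1 and gained, that is called in axr3-1 and not in Col, in 33. In 0 it was reversed, and 3 fell in none of these classes. A test was passed at a limma adjusted p under 0.05 (Benjamini-Hochberg over all 14192 probe sets). The difference itself was higher in axr3-1 for 106 (0.747% of those tested) and lower for 124 (0.874%), with 120 of the 230 at least 2-fold. At an unadjusted p under 0.05 there were 1283. For comparison, the same test called 4 probe sets in iaa17-6 (0.0282%) and 5 in the triple mutant (0.0352%). The Col response comprised 999 probe sets (7.04%) and that of axr3-1 341 (2.4%). Of the 999, 194 were also called in the difference, so most did not pass this direct test, which has a median SE of 0.215 on the log2 scale against 0.152 for a single response.

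**Figure D1:**
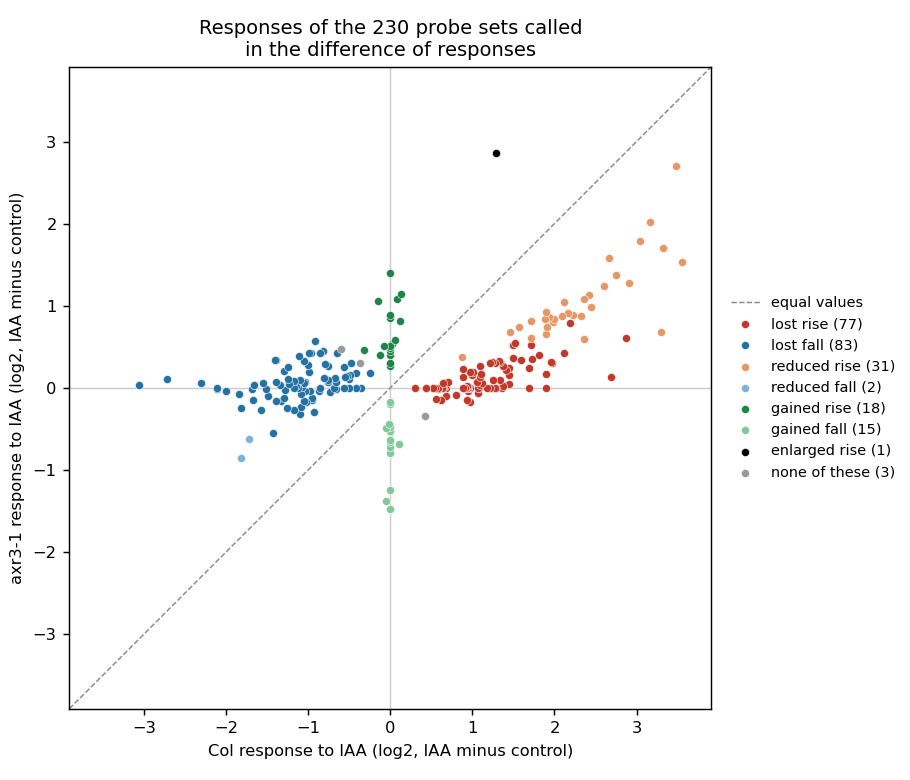
Response to IAA of Col (x axis) and of axr3-1 (y axis) for the 230 probe sets called in the difference of responses, both as log2 of IAA minus control (means of 3 arrays). Colours give the class, and the dashed line marks equal responses. The 77 lost rises and 83 lost falls scatter around the horizontal line at 0, with axr3-1 responses of -0.18 to 0.78 and of -0.56 to 0.56. The 31 reduced rises lie between that line and the dashed one.

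The rises lost in axr3-1 comprised 77 probe sets. In Col their median response was 1.09 on the log2 scale, with a range of 0.30 to 2.87, and in axr3-1 it was 0.05. On the separate arrays of the other mutants the same 77 had medians of 0.98 in iaa17-6 and 1.08 in the triple mutant. All 77 were called higher there in iaa17-6 (4.41% of all probe sets tested were), and 70 in the triple mutant (3.68%). In 25 of the 77 all 6 axr3-1 arrays lay at the floor, so that no axr3-1 array gave a signal in either treatment.

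PUCHI, an AP2/ERF transcription factor gene that acts in lateral root primordia, read 6.66, 6.70 and 6.35 on the Col IAA arrays. It was at the floor on all 3 Col control arrays and on all 6 axr3-1 arrays. Its rise was at least 1.90-fold in Col (adjusted p = 4.28e-06), and the responses differed by -0.93 (SE 0.15, adjusted p = 0.00117). PUB23, which encodes a U-box ubiquitin ligase, had the same pattern, with 6.60, 6.56 and 6.44 on the Col IAA arrays and the floor on the other 9. The rise was at least 1.85-fold in Col, and the difference of responses was -0.89 (SE 0.11, adjusted p = 6.51e-05). In iaa17-6 both genes rose from the floor, PUCHI to 6.44 ± 0.17 and PUB23 to 6.52 ± 0.22 (SD, n = 3).

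CP1, a cysteine protease gene, read 5.83, 5.64 and 5.67 in Col control and 7.19, 7.10 and 6.98 after IAA. In axr3-1 it was at the floor on all 3 control arrays and read 5.64, 5.71 and 5.64 after IAA, below every Col IAA array. The difference of responses was -1.35 (SE 0.17, adjusted p = 8.06e-05). For scpl28, a serine carboxypeptidase-like gene, Col rose from 5.72, 6.00 and 5.68 to 7.58, 6.70 and 6.78. All 6 axr3-1 arrays were at the floor, and the responses differed by -1.22 (SE 0.24, adjusted p = 0.00823, adjusted p = 0.0678 without the pair of arrays that correlated least with their groups, and adjusted p = 0.0807 with the 12 arrays alone). XTH33, a xyloglucan endotransglucosylase/hydrolase gene, rose to 6.43 ± 0.15 (SD, n = 3) in Col and stayed between 5.64 and 5.69 on the axr3-1 arrays (difference -0.64, SE 0.12, adjusted p = 0.00492).

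Other lost rises were measured well above the floor in both genotypes. HMT-1, a homocysteine methyltransferase gene, went from 7.92 ± 0.14 to 8.91 ± 0.15 in Col and from 7.94 ± 0.02 to 8.09 ± 0.23 in axr3-1 (SD, n = 3). ATG8G, which encodes a ubiquitin-like protein of autophagy, went from 6.78 ± 0.11 to 7.88 ± 0.13 in Col and from 6.95 ± 0.14 to 7.21 ± 0.09 in axr3-1. For both genes the IAA arrays of axr3-1 all lay below those of Col, while the control arrays overlapped. The differences of responses were -0.83 (SE 0.19, adjusted p = 0.0324) and -0.82 (SE 0.20, adjusted p = 0.0405). The HMT-1 call was lost without each of 9 arrays in turn (adjusted p = 0.0557 to adjusted p = 0.0984), all but Col control replicate 3, Col IAA replicate 1 and axr3-1 IAA replicate 1. That of ATG8G was lost without each of 11 (adjusted p = 0.0563 to adjusted p = 0.133), all but axr3-1 control replicate 3.

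TRM28, a gene of the TON1 recruiting motif family, was at the floor in Col control and read 6.74, 6.35 and 6.48 after IAA, against 5.64, 6.05 and 5.69 in axr3-1. Its difference was -0.75 (SE 0.17, adjusted p = 0.0298), a call lost without each of 10 arrays in turn (highest adjusted p = 0.0952) and kept without Col IAA replicate 2 or axr3-1 IAA replicate 2. P1R3 and SGP2, a small GTP-binding protein gene, are named after their values were seen. Both were at the floor on all 6 axr3-1 arrays and rose at least 1.55-fold in Col, with differences of -0.64 (SE 0.13, adjusted p = 0.0115) and -0.63 (SE 0.14, adjusted p = 0.0251). In the triple mutant the rises of P1R3 (0.01, SE 0.09) and SGP2 (0.18, SE 0.10) did not pass the test either. The P1R3 call was lost without the least correlated pair of arrays (adjusted p = 0.067) and with the other mutants in place of Col (adjusted p = 0.614), and that of SGP2 with the other mutants (adjusted p = 0.151). SGP2 kept its call without Col IAA replicate 2 and lost it without each of the other 11 arrays (highest adjusted p = 0.0762).

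Among loci without a symbol, AT4G13180 went from 8.07 ± 0.29 to 9.88 ± 0.08 in Col and from 8.23 ± 0.10 to 8.63 ± 0.28 in axr3-1 (SD, n = 3). Its control arrays overlapped between the genotypes, and its IAA arrays did not (difference -1.40, SE 0.26, adjusted p = 0.00609, and adjusted p = 0.0554 without the least correlated pair). AT3G18560 read 6.49, 6.09 and 6.40 in Col control and 8.13, 8.43 and 8.29 after IAA. In axr3-1 it was at the floor in control and read 5.75, 5.95 and 6.17 after IAA, below all 3 Col IAA arrays and overlapping with those of Col control. The responses differed by -1.65 (SE 0.20, adjusted p = 6.61e-05).

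**Figure D2:**
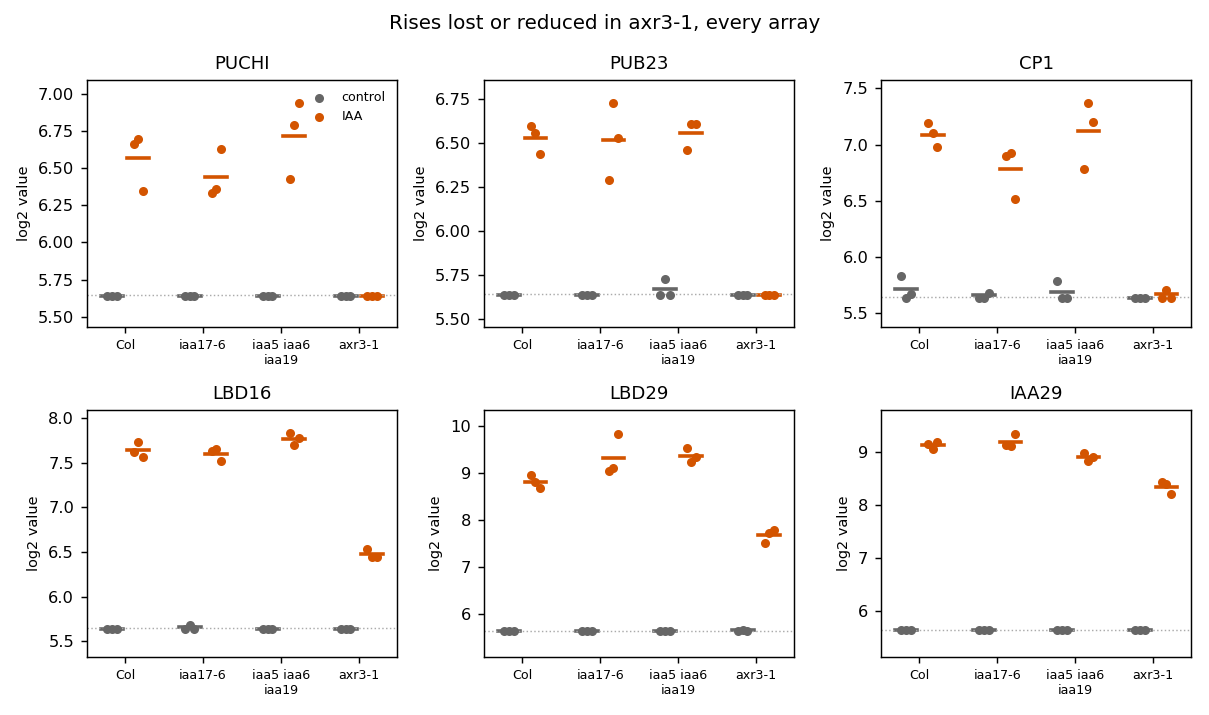
Log2 value on every array (points) and group mean (bars) for 6 genes whose rise was lost (PUCHI, PUB23, CP1) or reduced (LBD16, LBD29, IAA29) in axr3-1, with control in grey and IAA in orange for the 4 genotypes. The dotted line is the floor at 5.64, and the axr3-1 IAA arrays lie below the IAA arrays of the other 3 genotypes in each panel.

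The reduced responses, 33 in all, were 31 rises and 2 falls. The 31 rises had a median of 2.23 on the log2 scale in Col, against 0.89 in axr3-1, 2.34 in iaa17-6 and 2.28 in the triple mutant. The class needs a called response in axr3-1 that is smaller than that of Col, so a large Col response is partly fixed by the choice. A median of 44.4% of the Col log2 response was kept, from 20.5% to 77.6%, a description of the values that chose them. All 31 were called as rises in iaa17-6 (4.41% of all tested were), and 30 were in the triple mutant (3.68%).

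LBD16 and LBD29, LOB domain transcription factor genes that are direct targets of ARF factors in lateral root initiation, and IAA29, an Aux/IAA repressor gene, were of this kind. LBD16 read 7.62, 7.73 and 7.56 on the Col IAA arrays and 6.54, 6.45 and 6.44 on those of axr3-1, from the floor on all 6 control arrays. The difference was -1.16 (SE 0.09, adjusted p = 4.35e-07). LBD29 read 8.95, 8.80 and 8.67 in Col after IAA and 7.50, 7.72 and 7.78 in axr3-1, with the controls at 5.64 or 5.65 (difference -1.14, SE 0.21, adjusted p = 0.00594). IAA29 read 9.15, 9.05 and 9.19 in Col and 8.43, 8.40 and 8.22 in axr3-1, from the floor in both controls. It differed by -0.78 (SE 0.12, adjusted p = 0.000945). For all 3 genes the groups did not overlap after IAA, and the log2 response kept was 41.9% for LBD16, 63.9% for LBD29 and 77.6% for IAA29. With controls at or near the floor these shares are counted from the floor, and the share of the full response is not determined.

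Of the 230 differences, the largest decrease belonged to the locus AT4G17350. It read 5.64, 5.88 and 5.95 in Col control and 9.14, 9.14 and 9.09 after IAA, a 9.83-fold rise. In axr3-1 it read 5.87, 6.14 and 5.70 in control and 6.54, 6.48 and 6.72 after IAA, a 1.60-fold rise (adjusted p = 0.0043). The responses differed by -2.62 (SE 0.18, adjusted p = 9.62e-08), while iaa17-6 and the triple mutant rose 7.91-fold and 7.87-fold. AT3G51410 rose from the floor to 8.01, 7.99 and 8.02 in Col and to 6.25, 6.12 and 6.33 in axr3-1 (difference -1.77, SE 0.14, adjusted p = 2.76e-07).

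AT3G26760 rose 7.53-fold in Col and 2.42-fold in axr3-1 (difference -1.64, SE 0.31, adjusted p = 0.00594, and adjusted p = 0.067 without the least correlated pair). AT2G41380 rose 5.44-fold and 1.97-fold (difference -1.46, SE 0.35, adjusted p = 0.035). That call was kept without Col control replicate 1, axr3-1 control replicate 3 or axr3-1 IAA replicate 1 and lost without each of the other 9 arrays (highest adjusted p = 0.112). Without the least correlated pair it was at adjusted p = 0.214. A probe set unnamed here, 261766_at, rose from the floor to 9.20 ± 0.18 in Col and to 7.18 ± 0.14 in axr3-1 (SD, n = 3, difference -2.02, SE 0.17). The triple mutant had no signal above the floor for it in either treatment.

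Among the auxin-linked lists, few members could be matched by name to a tested probe set. As 8730 probe sets are unnamed here, a member not matched may still be on the array. Of 39 auxin-linked transcription factors 4 were measured, and 3 had a smaller response in axr3-1: PUCHI, LBD16 and LBD29. The list's median difference of responses was -1.03, against 0 over all probe sets tested. The member that did not pass was the homeobox gene HAT2, which went from 7.79 ± 0.22 to 10.79 ± 0.06 in Col and from 7.70 ± 0.12 to 10.64 ± 0.14 in axr3-1. Its difference of -0.07 had a 95% interval of -0.47 to 0.33. Of 29 Aux/IAA genes 3 were measured and 1, IAA29, passed. IAA18 differed by -0.10 (95% interval -0.65 to 0.45). IAA30, a family member that lacks the canonical degron, read 6.49, 6.02 and 6.46 on the Col IAA arrays and the floor on the other 9, a difference of -0.68 (SE 0.24, adjusted p = 0.261) that was past the threshold with the other mutants in place of Col (adjusted p = 0.00144).

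Of 21 genes for auxin conjugation or oxidation 6 were measured, and 0 passed the test of the difference, although 4 rose in Col (3.85% of all tested rose) and 2 in axr3-1 (1.79%). The median difference of the 6 was -1.14. The amidosynthetase gene GH3.3 read 7.25, 6.74 and 6.29 in Col control and 12.81, 12.66 and 12.38 after IAA. In axr3-1 it read 8.02, 7.39 and 8.40 in control, above all 3 Col arrays, and 12.17, 12.71 and 12.36 after IAA, overlapping with Col. Its responses differed by -1.39 (SE 0.35, adjusted p = 0.0524). This lay close to the threshold: it passed without Col control replicate 1 (adjusted p = 0.0191), axr3-1 control replicate 2 (adjusted p = 0.0114) or axr3-1 IAA replicate 2 (adjusted p = 0.0466), with a replicate block within each genotype (adjusted p = 0.0329) and with the other mutants in place of Col (adjusted p = 0.00465). Quantile normalization (adjusted p = 0.0365) and robust moderation (adjusted p = 0.0431) also brought it past the threshold. GH3.3 was near the highest value on the arrays, 13.16, where differences may be compressed.

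GH3.1, another amidosynthetase gene, read 7.56, 8.01 and 7.65 on the Col IAA arrays and was at the floor on all 6 axr3-1 arrays. The difference of -2.10 (SE 0.56, adjusted p = 0.0741) did not pass in the fit of all 24 arrays. There the IAA arrays spread from 5.85 to 7.93 in iaa17-6 and from 6.58 to 8.24 in the triple mutant. The difference passed with the 12 arrays alone (adjusted p = 4.71e-05) and with array weights (adjusted p = 0.0187). WES1 (GH3.5) differed by -2.46 (SE 0.71, adjusted p = 0.111, and adjusted p = 0.0482 without axr3-1 IAA replicate 2). WES1 also passed with the block within each genotype (adjusted p = 0.0155) and with the other mutants in place of Col (adjusted p = 0.0234). The auxin glucosyltransferase gene IAGLU differed by -0.90 (95% interval -1.88 to 0.09), GH3.17 by 0.47 (95% interval -0.15 to 1.08) and UGT74D1 by -0.38 (95% interval -1.15 to 0.39). The lists of auxin receptors, auxin transport and auxin synthesis, of ethylene, brassinosteroid and cytokinin genes, and of pectin enzymes and class III peroxidases had 11 measured members together. Of these, 0 were called in the difference of responses, which lay between -0.91 and 0.28 with a median of -0.20. Named after their values were seen, the 4 that rose in Col were WAG2, ARL, RTE1 and ATPMEPCRB, and ARL and RTE1 rose in axr3-1 as well. The SAUR, ARF, gibberellin and cell cycle lists had 0 members matched by name. Lists were matched by symbol or synonym, so members known here only by a locus code, or unnamed, could be missed. Of 36 class III peroxidases listed 1 was measured, and the 0 calls do not describe whole families.

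The falls lost in axr3-1 comprised 83 probe sets, and most of them were already lower in the axr3-1 control. They had a median Col response of -1.06, from -3.07 to -0.25, and a median of 0.03 in axr3-1. In iaa17-6 the median was -0.93 and 70 of the 83 passed as falls (3.31% of all tested did). In the triple mutant it was -1.17 and 75 passed (3.59%). For 60 of the 83 the axr3-1 control was already below the Col control (4.4% of all tested were lower there), and for 1 it was above (4.65%). Among the lost rises the axr3-1 control was called lower in 1 of 77 and higher in 13. A response from the control arrays and a difference between the control arrays share those arrays, so part of these counts is fixed by the construction and nothing is read from them.

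**Figure D3:**
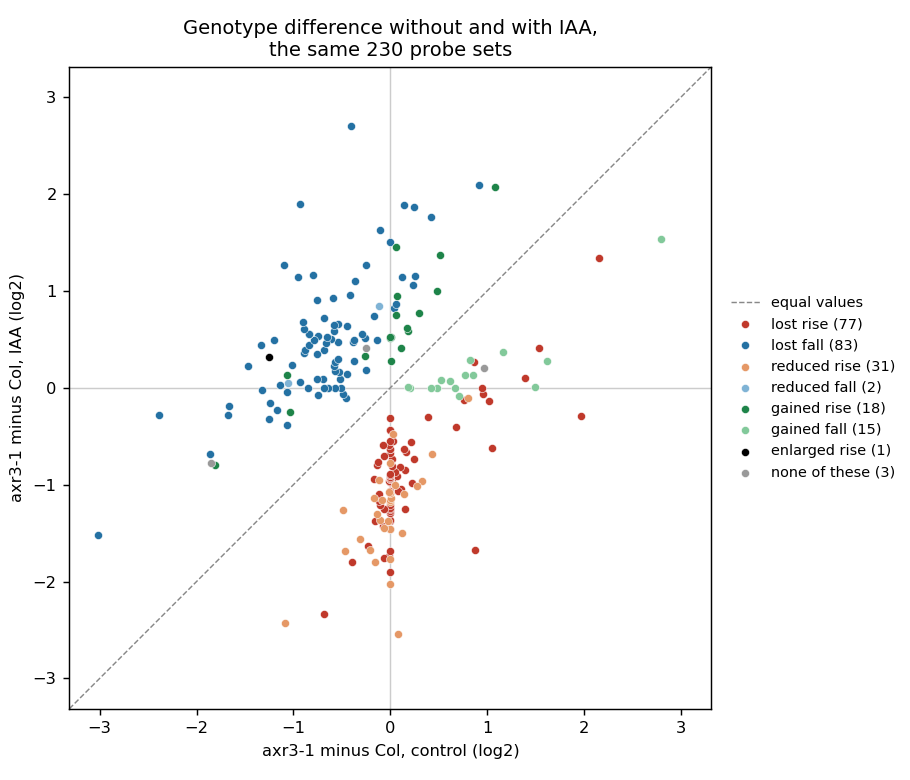
Difference between axr3-1 and Col in control (x axis) and after IAA (y axis), both in log2, for the same 230 probe sets, coloured by class. Most lost and reduced rises lie near 0 on the x axis and below 0 on the y axis, while most lost falls lie left of 0 on the x axis.

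The genotype difference was also counted by treatment, as a description. The difference of responses is the IAA difference minus the control difference, so these counts too are partly fixed by the choice of probe sets. Of the 77 lost rises, 63 differed between the genotypes after IAA and not in control, 10 in control and not after IAA, and 4 in both. Of the 83 lost falls these counts were 22, 45 and 16. In all, the axr3-1 control was already shifted in 106 of the 230, lower than Col in 69 and higher in 37 (9.05% of all probe sets tested differed in control, and 7.72% after IAA). For 76 of the 106 the shift ran in the direction of a called Col response to IAA, and for 5 against it. For a lost response this direction is largely fixed in the same way, so nothing is read from it.

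In the 61 lost falls with a shifted control, the axr3-1 control mean lay a median of 86.6% of the way from the Col control to the Col IAA mean. It lay between 50% and 100% of the way in 27 and at or past the Col IAA mean in 24. In the 14 lost rises with a shifted control the median was 79.9%. These shares rest on the arrays that chose the probe sets and are given as a description.

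Several falling genes were in control at a level near that of IAA-treated Col. GSTU28, a tau class glutathione transferase gene, read 6.79, 6.62 and 6.64 in Col control and was at the floor on all 3 Col IAA arrays. In axr3-1 it read 5.76, 5.78 and 5.70 in control and 5.64, 5.70 and 5.77 after IAA, and its control arrays lay below every control array of the other 3 genotypes. The control difference was -0.93 (SE 0.07, adjusted p = 4.43e-08), and the responses differed by 0.99 (SE 0.10, adjusted p = 7.85e-06). EXPB1, a beta expansin gene, read 6.33, 6.22 and 6.08 in Col control, and the floor on the Col IAA arrays and on all 6 axr3-1 arrays. It was at least 1.48-fold lower in the axr3-1 control (adjusted p = 6.49e-05), with a difference of responses of 0.57 (SE 0.11, adjusted p = 0.00743).

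For tny (TINY), an AP2/ERF transcription factor gene, Col fell from 7.57, 7.64 and 7.14 to 6.11, 6.47 and 5.93. The axr3-1 arrays read 6.60, 6.79 and 6.28 in control and 6.67, 6.49 and 6.42 after IAA, all 6 below the Col control arrays and overlapping with the Col IAA arrays. The control difference was -0.90 (SE 0.17) and that of responses 1.25 (SE 0.24, adjusted p = 0.00726, and adjusted p = 0.0628 with the 12 arrays alone). IQD19, which encodes an IQ domain protein that binds calmodulin, had 6.30 ± 0.15 in Col control, 5.74 ± 0.14 in Col after IAA, 5.77 ± 0.13 in axr3-1 control and 5.91 ± 0.07 in axr3-1 after IAA (SD, n = 3). Its responses differed by 0.69 (SE 0.13, adjusted p = 0.00808). LSH9, an ALOG domain gene, fell from 6.75 ± 0.14 to 5.67 ± 0.04 in Col and had 6.37 ± 0.30 and 6.14 ± 0.05 in axr3-1. It was lower than Col in control (-0.38, SE 0.10, adjusted p = 0.0253) and higher after IAA (0.47, SE 0.10, adjusted p = 0.00634), with responses that differed by 0.85 (SE 0.15, adjusted p = 0.00295, and adjusted p = 0.0677 with the 12 arrays alone).

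Calls of other falling genes in this group lay close to the threshold and were lost on leaving out most of the arrays singly. XTH16, a xyloglucan endotransglucosylase/hydrolase gene, had responses that differed by 1.28 (SE 0.31, adjusted p = 0.0394), with Col control arrays at 7.63, 7.79 and 8.47. It kept its call without Col control replicates 1 or 2 or Col IAA replicate 3 and lost it without each of the other 9 arrays (highest adjusted p = 0.123). Without the least correlated pair XTH16 was at adjusted p = 0.203. CHIL, a chalcone isomerase-like gene of flavonoid synthesis, differed by 0.81 (SE 0.20, adjusted p = 0.0442), a call kept without Col IAA replicate 1 or axr3-1 control replicate 1 and lost without each of the other 10 (highest adjusted p = 0.142). STOMAGEN, whose secreted peptide promotes stomata, differed by 1.07 (SE 0.27, adjusted p = 0.0484), with Col control arrays at 6.28, 5.85 and 6.97. It kept its call without Col control replicate 2 and without no other array (highest adjusted p = 0.131). The STOMAGEN call was also lost with the 12 arrays alone (adjusted p = 0.2) and with the other mutants in place of Col (adjusted p = 0.414). These 3 genes were not called as falls in iaa17-6, where CHIL changed by -0.14 (SE 0.14), STOMAGEN by -0.13 (SE 0.19) and XTH16 by -0.15 (SE 0.22). In the triple mutant XTH16 was called as a fall (-0.76, SE 0.22, adjusted p = 0.0372) and the other 2 genes were not.

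Without a symbol, AT3G01260 read 7.85, 7.98 and 8.26 in Col control and 5.77, 5.72 and 6.27 after IAA. It was at the floor on all 6 axr3-1 arrays, at least 5.24-fold lower than Col in control (adjusted p = 2.68e-08). Its responses differed by 2.11 (SE 0.25, adjusted p = 5.05e-05). AT4G11210 read 7.32, 7.82 and 7.11 in Col control, 5.76, 5.86 and 5.64 in Col after IAA, and between 5.64 and 6.17 on the 6 axr3-1 arrays. For this locus too all 3 axr3-1 control arrays lay below every Col control array, and the responses differed by 1.69 (SE 0.25, adjusted p = 0.000772).

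In AT3G01190 the axr3-1 control lay part of the way down. The Col arrays read 9.20, 9.28 and 9.25 in control and 7.04, 7.38 and 7.29 after IAA, and those of axr3-1 8.49, 8.39 and 8.46 in control and 8.28, 8.23 and 8.72 after IAA. Both axr3-1 groups therefore lay between the Col groups, with no overlap with either. It was lower than Col in control (-0.80, SE 0.14, adjusted p = 0.000873) and higher after IAA (1.17, SE 0.14), and the responses differed by 1.97 (SE 0.20, adjusted p = 8.36e-06). A pair of probe sets unnamed here had this pattern with larger values. In 254606_at, Col went from 9.02 ± 0.06 to 6.29 ± 0.09 and axr3-1 from 8.09 ± 0.13 to 8.19 ± 0.30 (SD, n = 3, difference 2.83, SE 0.21). In 253957_at, Col went from 7.95 ± 0.31 to the floor and axr3-1 from 6.85 ± 0.42 to 6.91 ± 0.05 (difference 2.36, SE 0.24).

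The other lost falls, 22 in number, differed from Col after IAA and not in control. GSTU26, another tau class glutathione transferase gene, read 7.79, 8.00 and 7.69 in Col control and 6.61, 6.55 and 6.14 after IAA. The axr3-1 arrays read 7.72, 7.49 and 7.19 in control, overlapping with Col, and 7.17, 7.63 and 7.80 after IAA, above all 3 Col arrays. Its difference of 1.46 (SE 0.35, adjusted p = 0.0357) was kept without axr3-1 control replicate 1 or axr3-1 IAA replicate 1 and lost without each of the other 10 arrays (highest adjusted p = 0.116). AT4G11190 went from 8.07 ± 0.54 to 6.67 ± 0.47 in Col and from 7.96 ± 0.33 to 8.30 ± 0.15 in axr3-1 (SD, n = 3). Its responses differed by 1.74 (SE 0.35, adjusted p = 0.0115, adjusted p = 0.112 with the 12 arrays alone, and adjusted p = 0.0562 with array weights).

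TBL25, of a family that acetylates wall polysaccharides and named after its values were seen, went from 8.68 ± 0.09 to 7.76 ± 0.11 in Col and from 8.54 ± 0.24 to 8.25 ± 0.14 in axr3-1. The difference of 0.63 (SE 0.16, adjusted p = 0.0474) was lost without each of 10 arrays in turn (highest adjusted p = 0.144) and with a replicate block (adjusted p = 0.0644). It held without axr3-1 control replicate 1 or axr3-1 IAA replicate 1. The largest difference of all 230, 3.11, was a lost fall in a probe set annotated to several genes, which is not named here.

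**Figure D4:**
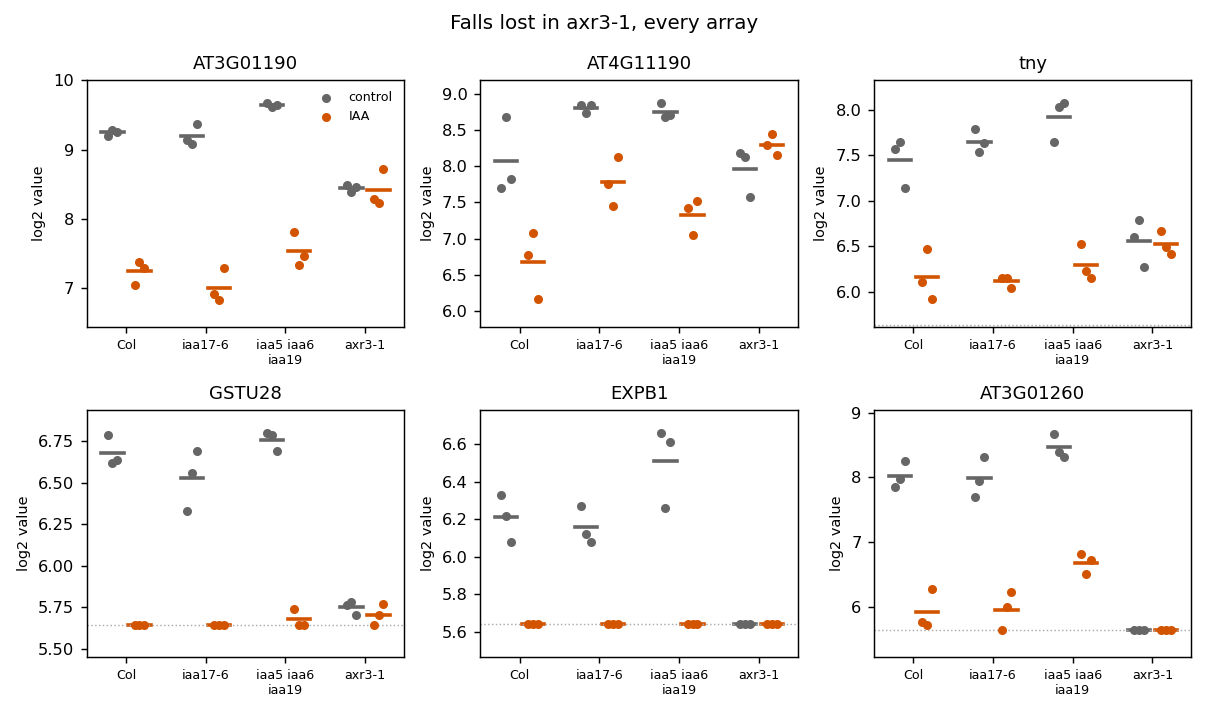
Log2 value on every array (points) and group mean (bars) for 6 genes whose fall after IAA was lost in axr3-1, control in grey and IAA in orange. In GSTU28, EXPB1 and AT3G01260 the axr3-1 control lies at or near the floor (dotted line at 5.64), in AT3G01190 and tny its mean lies between the Col means, and in AT4G11190 it overlaps with the Col control.

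A rise was lost together with a raised control in fewer probe sets. AT5G40590 read 6.28, 5.8 and 5.76 in Col control and 8.96, 9.09 and 8.40 after IAA. In axr3-1 it read 8.07, 8.11 and 7.58 in control, above the control arrays of all other genotypes, and 8.27, 8.54 and 8.75 after IAA, overlapping with Col. It was 3.92-fold higher than Col in control (adjusted p = 5.08e-07), and the responses differed by -2.26 (SE 0.26, adjusted p = 3.13e-05). AT5G39580 read 6.99, 7.09 and 6.41 in axr3-1 control, against 5.84, 5.86 and 5.64 in Col, and 7.13 ± 0.30 after IAA, against 7.75 ± 0.30 in Col (SD, n = 3). The responses differed by -1.68 (SE 0.26, adjusted p = 0.00117).

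EXPA20, an alpha expansin gene, read 6.30, 6.35 and 6.51 in axr3-1 control and 5.84, 5.64 and 5.64 in Col control. After IAA it read 6.73, 6.16 and 5.82 in axr3-1 and 6.46, 6.71 and 6.75 in Col, with overlap. Its difference of -1.08 (SE 0.26, adjusted p = 0.0426) was kept without axr3-1 IAA replicate 1 and lost without each of the other 11 arrays (highest adjusted p = 0.133). With a replicate block it was at adjusted p = 0.055, and without the least correlated pair at adjusted p = 0.268. The probe set 250670_at, unnamed here, read 7.37, 7.61 and 6.98 in Col control and 10.20, 9.96 and 9.85 after IAA. In axr3-1 it had 8.20 ± 0.03 in control and 8.33 ± 0.28 after IAA (SD, n = 3). It was higher than Col in control (0.88, SE 0.15) and lower after IAA (-1.67, SE 0.15), with responses that differed by -2.55 (SE 0.21, adjusted p = 4.98e-07).

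A larger response in axr3-1 than in Col was found in 1 gene that responded in both. XTH19, a xyloglucan endotransglucosylase/hydrolase gene, read 7.46, 7.66 and 8.14 in Col control and 9.12, 8.74 and 9.27 after IAA. In axr3-1 it read 6.51, 6.34 and 6.65 in control, below all control arrays of the other genotypes, and 9.27, 9.18 and 9.62 after IAA, overlapping with Col. The rise was 7.24-fold in axr3-1 and 2.44-fold in Col, a difference of 1.57 (SE 0.38, adjusted p = 0.0382). Between the genotypes, the control differed by -1.25 (SE 0.27, adjusted p = 0.00355) and the IAA groups by 0.31 (95% interval -0.24 to 0.87). The call of the difference was kept without Col control replicate 1 or Col IAA replicate 3 and lost without each of the other 10 arrays (highest adjusted p = 0.124). It was also lost without the least correlated pair of arrays (adjusted p = 0.302) and with array weights (adjusted p = 0.0701).

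Rises gained in axr3-1 numbered 18, with responses of 0.26 to 1.39 and a median of 0.52, and 4 of them were at least 2-fold. For 9 of the 18 all 6 Col arrays were at the floor. Of these rises 2 also passed in iaa17-6 (4.41% of all tested rose there) and 1 in the triple mutant (3.68%). Nothing is read from counts this small. BGLU28, a beta-glucosidase gene, was the 1 with a symbol. It was at the floor on all 18 arrays of Col, iaa17-6 and the triple mutant, read 5.81, 5.65 and 5.64 in axr3-1 control, and 7.26, 7.05 and 6.97 in axr3-1 after IAA. The response of 1.39 (SE 0.05, 2.63-fold) in axr3-1 differed from that of Col by the same amount (SE 0.08, adjusted p = 2.91e-09). The groups at the floor, without spread, share in these SE, while the axr3-1 groups had SD of 0.09 in control and 0.15 after IAA. The SE and p-value can thus be too small for the axr3-1 arrays.

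Falls gained in axr3-1 numbered 15, and for all 15 the axr3-1 control was higher than that of Col (4.65% of all tested were). Their responses lay between -1.48 and -0.17 (0.613% of all tested fell in axr3-1), with a median of -0.64. For 10 of them all 6 Col arrays were at the floor, so that a fall in Col could not have been seen. For these 10 a fall in axr3-1 requires a control above that of Col, so the count of 15 is partly fixed by the choice. In iaa17-6 0 of the 15 passed as falls (3.31% of all tested did) and in the triple mutant 1 (3.59%). Counts this small are near those shares, and nothing is read from them. AT2G40435 was at the floor on all 6 Col arrays, read 6.95, 7.18 and 7.29 in axr3-1 control and 5.64, 5.64 and 5.68 after IAA (response -1.48, SE 0.16, difference of the same size with SE 0.22 and adjusted p = 0.000689). Its controls were above the floor on some arrays of the other mutants, with 6.14 ± 0.35 in iaa17-6 and 5.88 ± 0.41 in the triple mutant (SD, n = 3). AT5G64550 read 7.10, 7.55 and 7.26 in axr3-1 control and 5.83, 6.29 and 5.64 after IAA, against at most 5.74 on the Col arrays (difference -1.33, SE 0.20, adjusted p = 0.000725).

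In AT5G14370 the responses differed by -0.80 (SE 0.19, adjusted p = 0.0347), a call lost without each of 9 arrays (highest adjusted p = 0.11) and kept without Col control replicate 2, Col IAA replicate 1 or axr3-1 control replicate 1. With the other mutants in place of Col it was at adjusted p = 0.65, and without the least correlated pair at adjusted p = 0.259. AT4G16563 differed by -0.79 (SE 0.19, adjusted p = 0.0394) and kept its call without axr3-1 IAA replicate 1 and without no other array (highest adjusted p = 0.104). Among the 3 probe sets in none of the classes, AT1G06830 was the 1 with a gene name. It fell short of the threshold in Col (-0.60, SE 0.19, adjusted p = 0.0615), did not pass in axr3-1 (0.47, SE 0.19, adjusted p = 0.311) and differed by 1.07 (SE 0.26, adjusted p = 0.0442). It was lower in axr3-1 in control (-1.85, SE 0.19), and its call was kept without Col control replicate 3, axr3-1 control replicate 2 or axr3-1 IAA replicate 2 and lost without each of the other 9 arrays (highest adjusted p = 0.138). With a replicate block it was at adjusted p = 0.0618.

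**Figure D5:**
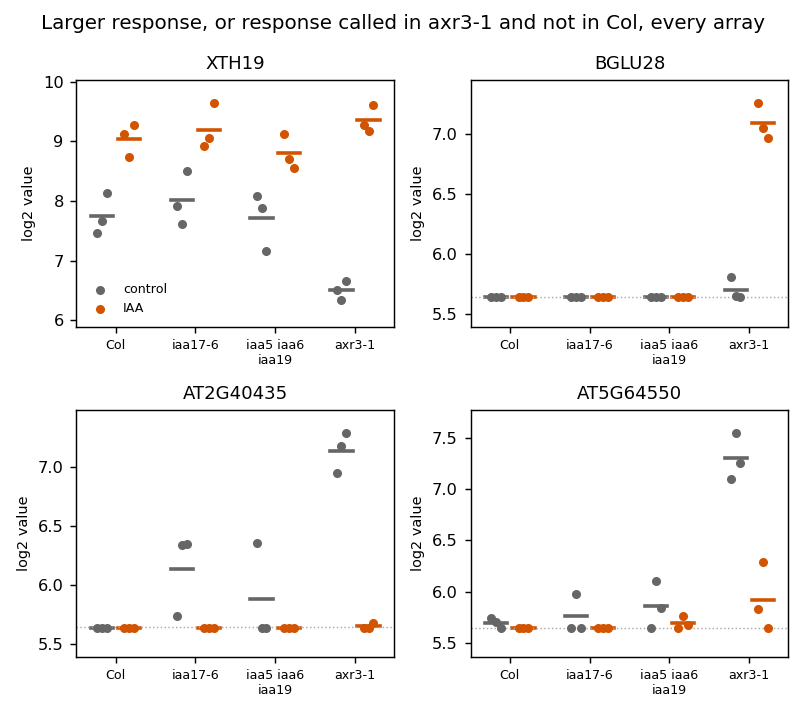
Log2 value on every array (points) and group mean (bars) for XTH19, whose rise was larger in axr3-1, BGLU28, without signal above the floor in the other 3 genotypes, and the loci AT2G40435 and AT5G64550, which were higher in the axr3-1 control. Control is grey, IAA is orange, and the dotted line is the floor at 5.64.

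Genes of cell wall lists were called in the difference of responses in both directions, and more of them differed between the genotypes in level. Of 28 expansins 12 were measured, with 1 higher and 1 lower difference of responses (EXPB1 and EXPA20), or 16.7% of those measured against 1.62% of all probe sets tested. In control 7 of the 12 were lower in axr3-1 and 2 higher (4.4% and 4.65% of all tested were). After IAA 5 were lower and 2 higher (3.49% and 4.22% of all tested were). Of 48 genes of xyloglucan and cellulose remodelling 13 were measured, with 2 higher (XTH16 and XTH19) and 1 lower (XTH33), or 23.1%, while 8 were lower in control and 7 after IAA. The calls of EXPA20, XTH16 and XTH19 were each lost on leaving out most of the arrays singly. The median difference of responses was -0.02 for the expansins and 0.17 for the second list. Of 45 root hair genes 5 were measured. In each treatment 4 of them were lower in axr3-1, and 0 were called in the difference of responses, with a median Col response of -0.12.

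Of 41 glutathione transferases 11 were measured, and 2 (GSTU26 and GSTU28) had a fall in Col that was lost in axr3-1 (18.2% of those measured). The GSTU26 call was lost on leaving out most of the arrays singly. Of 39 genes of sugar and reserve metabolism 13 were measured. In axr3-1 9 of them were higher and 2 lower in control (4.65% and 4.4% of all tested were), and 6 were higher and 0 lower after IAA. In Col 4 fell (3.18% of all tested fell), and 0 were called in the difference of responses. Of 49 beta-glucosidases 10 were measured and 1, BGLU28, was called. The photosynthesis and stress marker lists had 0 calls in the difference, and the 1 measured stress marker was not called between the genotypes in either treatment.

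The 230 calls were set against the other mutants as reference. With the mean response of iaa17-6 and the triple mutant in place of that of Col, an alternative added after the values were seen, 191 of the 230 passed the test (2.52% of all probe sets tested did), and the sign was the same in all 230. The axr3-1 arrays and the estimate of spread are shared by both tests, so this bears only on the choice of Col as reference. By class, 61 of the 77 lost rises, 67 of the 83 lost falls, 29 of the 31 reduced rises, 15 of the 18 gained rises and 14 of the 15 gained falls passed. The measured probe sets near the floor limit what could be seen. On 90 of the 230, no array of the 12 was at the floor, against about 10970 of all 14192 tested. The calls thus lay more often than all tested probe sets where some arrays were at the floor.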

How the data were processed

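RNA of 24 seedling samples, 3 in each of 8 groups, was measured on Affymetrix ATH1 arrays. The authors deposited log2 values, a scale read here from their range and floor. Their summarization, normalization and genome build were not given in the sources. Values were used as deposited. The 64 control probe sets and 8554 probe sets that never rose above the floor were left out, and 14192 were tested.

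All contrasts came from 1 limma fit (limma 3.58.1, R 4.3.3) of 8 group means on all 24 arrays with a mean trend and 16 residual degrees of freedom, so all groups share the estimate of spread. P-values are two-sided with Benjamini-Hochberg adjustment per contrast. Errors are SE for differences and SD for levels. The number of arrays limits the precision. On simulated data of this design the fit recovered 57 of 100 differences of responses of 1 log2 unit and 93 of 100 of 2 units, with 6 false calls. The changed probe sets were drawn only from those with means well above the floor, and every group had the same simulated spread. The recovery therefore does not cover calls near the floor, where whole groups had no spread, and false calls may differ there.

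Names come from the platform annotation, updated through RefSeq: 13513 probe sets have 1 gene, 503 several, and 8730 are unnamed here. A gene with several probe sets is represented by its brightest. List members were matched by symbol or synonym, and those called measured were matched to a tested probe set with 1 gene. Named are, per class, up to 8 called genes with a symbol and up to 4 bare loci with the largest differences, every called list member, and every measured member of the Aux/IAA, conjugation and transcription factor lists. The members, classes and lists were chosen with earlier results of these data known. Sequences and promoter motifs were not analysed here. Alternatives were other filters, scalings and moderations, array weights, replicate blocks, the 12 arrays alone, leaving out each array, and 2 added after the data were seen (without the pair of arrays that correlated least with their groups, and with the other mutants in place of Col).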

Additional observations from a re-analysis of the deposited data

Results flagged for a closer look

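The response to IAA differed between axr3-1 and Col by the test of the difference itself for 43 named genes, with the differences given here in log2 (axr3-1 minus Col). Among rises lost in axr3-1 they were -2.26 for AT5G40590, -1.68 for AT5G39580, -1.65 for AT3G18560, -1.40 for AT4G13180, -1.35 for CP1 and -1.22 for scpl28. They were -1.08 for EXPA20, -0.93 for PUCHI, -0.89 for PUB23, -0.83 for HMT-1, -0.82 for ATG8G, -0.75 for TRM28, -0.64 for XTH33, -0.64 for P1R3 and -0.63 for SGP2. Among reduced rises they were -2.62 for AT4G17350, -1.77 for AT3G51410, -1.64 for AT3G26760, -1.46 for AT2G41380, -1.16 for LBD16, -1.14 for LBD29 and -0.78 for IAA29.

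Among falls lost in axr3-1 they were 2.11 for AT3G01260, 1.97 for AT3G01190, 1.74 for AT4G11190, 1.69 for AT4G11210, 1.46 for GSTU26, 1.28 for XTH16 and 1.25 for tny. They were 1.07 for STOMAGEN, 0.99 for GSTU28, 0.85 for LSH9, 0.81 for CHIL, 0.69 for IQD19, 0.63 for TBL25 and 0.57 for EXPB1. The difference was 1.57 for the enlarged rise of XTH19 and 1.39 for BGLU28, called in axr3-1 and not in Col. It was -1.48 for AT2G40435, -1.33 for AT5G64550, -0.80 for AT5G14370 and -0.79 for AT4G16563, whose falls were called in axr3-1 and not in Col, and 1.07 for AT1G06830.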

How the results depend on the processing

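Counts are given in the order all calls, lost, reduced, enlarged or gained, and already shifted, and were 230, 160, 33, 34 and 106. Leaving out each of the 12 arrays in turn gave 161 to 208, 110 to 143, 26 to 33, 20 to 41 and 69 to 113, and 156 to 176 of the 230 calls were kept. Limited to probe sets that never touched the floor, the counts were 46, 40, 4, 1 and 31. That filter leaves out every probe set with a group at the floor. With the lowest 60% left out there were 93 calls, 65 lost, 4 enlarged or gained and 50 shifted. The 12 arrays fitted alone gave 17 enlarged or gained. Without the 2 arrays that correlated least with their groups the counts were 143 in all, 101 lost, 20 enlarged or gained and 66 shifted. With the other mutants in place of Col they were 357 in all, 271 lost and 190 shifted. The cause of these changes beyond the number of arrays or probe sets tested was not tested.

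Deviations of same-numbered arrays from their group means correlated at -0.40 to 0.58 over the 6 pairs of groups. In 1 pair, Col control with axr3-1 IAA, all 3 numbers were over 0.1 (0.30, 0.51 and 0.58), and in the other 5 they were not, so the numbers were not taken to pair the samples. In 8 of 18 comparisons an array correlated best with its own number. A replicate block over all groups gave 244, 171, 33, 35 and 113, and a replicate block within each genotype 363 in all with 69 enlarged or gained. Median centring moved the calls from 106 higher and 124 lower to 129 and 102, quantile normalization to 119 and 115, the 12 arrays alone to 72 and 114, and the probe sets that never touched the floor to 32 and 14. Of 43 named genes that were called, 21 kept their call in each of the 25 settings in which they were tested and 28 without each array in turn. The highest adjusted p-values given for single arrays left out do not cover the other settings, some of which went higher. The sign of the difference was kept in all settings for the 230 calls wherever tested. The floor, at which 44.43% to 45.13% of values lie, and 3 arrays per group limit what could be detected.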
